A study of Mus musculus with 20 samples.

Results

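The 10 genes described here encode the enzymes that form and break down urate and 3 of the carriers that move it, namely Xdh, Uox, Urah, Urad, Pnp, Ada, Gda, Slc2a9, Abcg2 and Slc22a7. They were taken by gene symbol from the 22298 entries listed for each liver, and all 10 were found and passed the filter on low counts. RNA was sequenced from the livers of 20 male mice with the db/db mutation of Lepr, the leptin receptor gene, a background of obesity and diabetes. An AAV8 vector was injected into the tail vein at 5 weeks of age, with a non-targeting shRNA in the control vector and several shRNAs against Pparg in the knockdown vector. For 4 weeks the mice were then gavaged once daily with benzbromarone (BBR) at 25 mg per kg or with the vehicle, sodium carboxymethyl cellulose, and livers were taken after a fast of 6 h. There were 4 groups of 5 mice, namely Vec (control vector, vehicle), Vec+BBR (control vector, BBR), shRNA (knockdown vector, vehicle) and shRNA+BBR (knockdown vector, BBR). The control mice therefore also carried the db/db mutation and an AAV8 vector, and the knockdown lowered Pparg without removing it. The labels name the target only as PPAR, and the methods of the study name PPARγ. RNA was read from whole liver, and each library was made from 1 mouse.

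Purine nucleotides are taken apart in the liver to nucleosides and bases. Adenosine deaminase (Ada), purine nucleoside phosphorylase (Pnp) and guanine deaminase (Gda) lead to hypoxanthine and xanthine, and xanthine dehydrogenase (Xdh) oxidises these to urate. In mice, urate is then oxidised by urate oxidase (Uox) in peroxisomes. The product is passed through hydroxyisourate hydrolase (Urah) and a decarboxylase (Urad) to allantoin. The human urate oxidase gene is a pseudogene, and urate is the end product in humans. Slc2a9 (GLUT9) carries urate across the hepatocyte membrane, Abcg2 (BCRP) is an efflux pump with urate among its substrates, and Slc22a7 (OAT2) is an organic anion carrier of the basolateral membrane. BBR lowers serum urate by blocking the carrier URAT1 (Slc22a12) in the kidney.

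The start regions of the 3 successive enzymes of urate breakdown and of Slc2a9 are shown first, since Urah, Urad and Slc2a9 passed a test below and Uox, the step between urate and Urah, passed none. Each is the RefSeq window on GRCm38.p6 from 250 bases before to 50 bases after a start site, written 5′ to 3′ on the strand of the gene. They lie at chr3:146596899-146597198 on the plus strand for Uox, chr7:140834888-140835187 on the plus strand for the first of 2 Urah windows, chr5:147322391-147322690 on the minus strand for Urad and chr5:38483336-38483635 on the minus strand for Slc2a9. Capitals mark TGACCT, which is AGGTCA read on the other strand, the hexamer bound by nuclear receptors such as PPARγ.
Uox: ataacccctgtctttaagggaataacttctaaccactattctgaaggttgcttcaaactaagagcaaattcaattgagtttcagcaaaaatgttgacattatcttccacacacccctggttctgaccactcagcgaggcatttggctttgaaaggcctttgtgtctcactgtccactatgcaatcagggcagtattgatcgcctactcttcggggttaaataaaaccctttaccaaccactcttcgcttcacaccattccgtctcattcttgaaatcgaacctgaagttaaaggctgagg
Urah: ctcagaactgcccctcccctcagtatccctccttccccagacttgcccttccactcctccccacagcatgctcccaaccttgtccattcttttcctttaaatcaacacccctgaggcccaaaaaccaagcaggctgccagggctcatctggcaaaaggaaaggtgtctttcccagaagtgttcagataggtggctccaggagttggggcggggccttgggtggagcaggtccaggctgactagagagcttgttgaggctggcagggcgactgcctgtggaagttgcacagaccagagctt
Urad: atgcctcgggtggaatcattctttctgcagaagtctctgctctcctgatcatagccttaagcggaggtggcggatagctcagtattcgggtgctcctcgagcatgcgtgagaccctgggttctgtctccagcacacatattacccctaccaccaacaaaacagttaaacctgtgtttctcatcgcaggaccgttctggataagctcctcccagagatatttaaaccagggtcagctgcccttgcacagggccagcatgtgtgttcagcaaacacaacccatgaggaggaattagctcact
Slc2a9: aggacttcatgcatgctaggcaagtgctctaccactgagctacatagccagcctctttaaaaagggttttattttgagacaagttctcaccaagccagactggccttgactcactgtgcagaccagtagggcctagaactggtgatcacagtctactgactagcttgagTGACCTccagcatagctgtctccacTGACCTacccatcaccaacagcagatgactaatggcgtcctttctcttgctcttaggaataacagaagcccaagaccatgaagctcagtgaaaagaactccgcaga

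Of the 10 genes, 8 had an entry, with 11 windows in all. AGGTCA was searched on both strands and was found in 16.3% of the 32851 windows of all genes. It was found 2 times in the Slc2a9 window, 2 times in the first and 1 time in the last of the 3 Abcg2 windows, and in no window of Uox, Urah, Urad, Pnp, Ada or Gda. Exact pairs of AGGTCA separated by 1 base, the strict form of the PPAR response element, were present in 0.0396% of all windows and in none of the 11. Elements that differ from these letters were not searched. CAAAGTCC, the core of the HNF4 site, was present in 1.42% of all windows and also in none of the 11. Such matches describe letters in these windows and no binding was measured.

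Library totals ran from 17432904 to 25024099 counts, and a count of 3, taken as the floor, equals 0.120 to 0.172 CPM (counts scaled to library size). CPM values below are scaled further by the TMM method, and replicates are separate mice given in the order 1 to 5. Pparg itself, the target, had 16.4, 20.1, 35.9, 19.4 and 32.1 CPM in the Vec livers and 34.8, 29.8, 28.02, 28.1 and 38.3 CPM in the Vec+BBR livers. In the knockdown livers it had 7.31, 6.53, 5.96, 3.24 and 5.63 CPM without BBR and 11.4, 9.99, 21.8, 18.9 and 7.19 CPM with BBR. Every shRNA liver was below every Vec liver (log2 fold change -2.12, edgeR adjusted p = 4.47e-05), and every shRNA+BBR liver was below every Vec+BBR liver (-1.20, edgeR adjusted p = 0.00843). Within the knockdown vector Pparg was higher with BBR (1.28, edgeR adjusted p = 0.00773), and shRNA+BBR replicates 3 and 4 lay within the range of the Vec group. On the first principal component of all tested genes Vec replicate 3 stood at 19.8, between the other Vec livers (at most 2.2) and the Vec+BBR livers (26.0 to 33.4), and it was the lowest of the 5 Vec livers in Xdh, Urad, Pnp, Slc2a9 and Slc22a7. Liver identity was present throughout, with 6 hepatocyte markers summing to 113234 to 141581 CPM in Vec and to 84628 to 119392 CPM in Vec+BBR. The 5 kidney tubule markers summed to at most 2.01 CPM in any liver. That value came from a Vec liver, against a median of 0.141 CPM in Vec and at most 0.614 CPM in the other groups.

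Levels of the 10 genes differed widely between genes on the FPKM scale, which corrects for transcript length. Uox was the most abundant, with a mean of 908 FPKM over the 20 livers and rank 86 among all entries, and the range over livers was 643 to 1155 FPKM. Urah followed at 202 FPKM (range 162 to 248) and Abcg2 at 63.00 FPKM (range 53.9 to 73.8). The ranges of these 3 genes did not overlap with each other or with that of Xdh, the next in order (35.4 FPKM, range 27.2 to 46.9). Below it came Pnp at 28.9, Slc2a9 at 19.5, Urad at 17.7, Gda at 5.85, Slc22a7 at 5.001 and Ada at 0.704 FPKM, and from Xdh downwards the ranges of neighbours in this order overlapped. The 3 steps that follow urate were thus present in every liver, with Urad the scarcest of them (5.07 to 31.9 FPKM). Variation over the 20 livers was largest for Slc22a7, with a coefficient of variation of 83.6% in CPM, then for Urad (48.7%), and smallest for Abcg2 (8.98%).

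**Figure D1:**
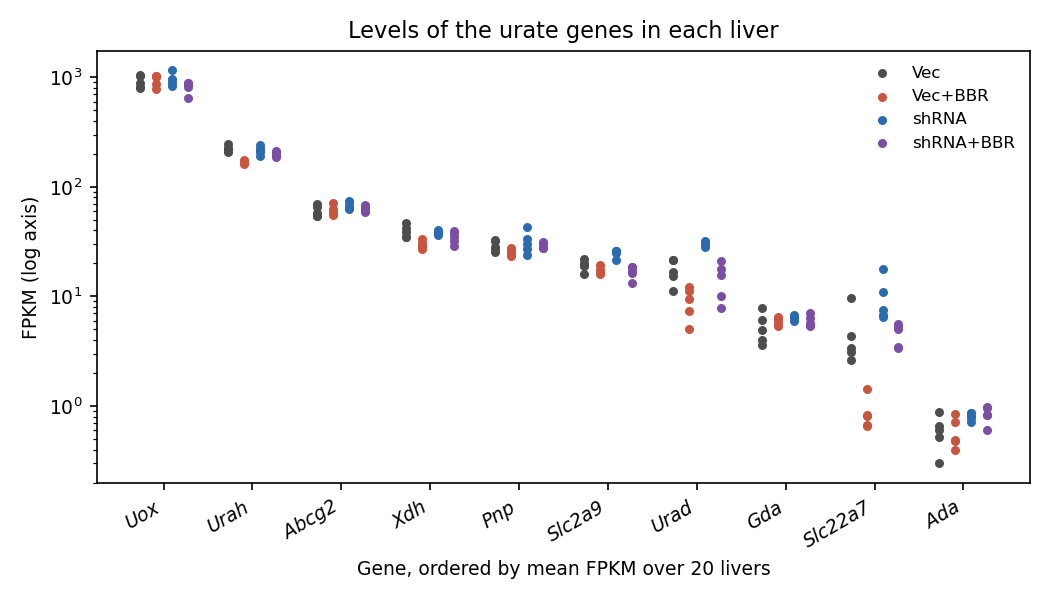
FPKM (log axis) of the 10 urate genes in each of the 20 livers, with 1 point per liver, coloured by group, and genes ordered by their mean. Uox lies between 643 and 1155 FPKM at the top and Ada at 0.299 to 0.971 FPKM at the bottom, and Slc22a7 and Urad spread most between groups.

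BBR given with the control vector lowered 5 of the 10 genes and raised none (edgeR's quasi-likelihood test, adjusted p under 0.05). They were Pnp and Xdh on the way to urate, Urah and Urad after it, and the carrier Slc22a7, which fell 5.89-fold. Among all 12342 tested genes, 7.88% were called lower in this comparison. The median log2 fold change was -0.31 over the 10 genes and -0.01 over all tested genes. With library totals as the only scaling the median of all genes moved up by 0.13, calls over all genes went from 936 higher and 972 lower to 1831 higher and 459 lower, and Urah, Urad and Slc22a7 were the members called. Without Vec replicate 3, the Vec liver nearest the Vec+BBR livers, 6 members were called, with Slc2a9 as the added gene, the calls over all genes went from 1908 to 2395, and the log2 fold changes were -0.53 for Xdh, -0.38 for Pnp, -0.57 for Urah, -1.19 for Urad and -2.73 for Slc22a7. Urah, Urad and Slc22a7 kept the call in each of the 17 alternatives run for this comparison, and Xdh and Pnp did not. The count of members was 3 without Vec replicate 1, 2 or 4 or Vec+BBR replicate 3 or 4. The 2 groups did not overlap in 4 members, Urah, Urad, Pnp and Slc22a7, all lower with BBR, against 4.24% of all tested genes that were lower without overlap. Markers of hepatocytes moved with the same groups. Of the pericentral markers 6 of 8 were called lower, with sums of 10362 to 18981 CPM in Vec and 6692 to 9405 CPM in Vec+BBR. Of the periportal markers 4 of 7 were called lower and 1 higher, and of the general hepatocyte markers 3 of 6 were called lower. The part of these markers in the changes was not tested. In whole liver, fewer cells of a type and less RNA per cell cannot be told apart.

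Under the knockdown vector BBR lowered 4 of the 10 genes, Xdh, Urad, Slc2a9 and Slc22a7, and raised none, against 7.28% of all tested genes called lower, and the groups did not overlap in any of these 4, against 5.58% of all tested genes that were lower without overlap. The medians were -0.08 over the 10 genes and 0.01 over all. Knockdown itself, compared without BBR, went with higher Urad and Slc22a7 (2 genes, against 5.28% of all tested genes called higher), with medians of 0.15 and -0.01. With BBR in both groups, knockdown livers had higher Urah and Slc22a7 (2 genes, against 3.31%), with medians of 0.22 and -0.00. No member was called lower in knockdown livers in either comparison. Without Vec replicate 3 neither of the first 2 calls held, with 0.59 for Urad (edgeR adjusted p = 0.1003) and 0.85 for Slc22a7 (edgeR adjusted p = 0.108). With library totals as the only scaling the median of all genes rose by 0.10 between shRNA and Vec, and the calls went from 652 higher and 976 lower to 1098 higher and 559 lower. Without shRNA+BBR replicate 3 or 4, the knockdown livers with the most Pparg, 2 members were called for BBR under knockdown, Urad and Slc2a9, while the calls over all genes went from 1932 to 661 and 1195. Between the vectors under BBR, Slc22a7 was called without either, Urah without replicate 4 and Urad without replicate 3. Each group serves in 2 of these comparisons, so a high or low group enters both.

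**Figure D2:**
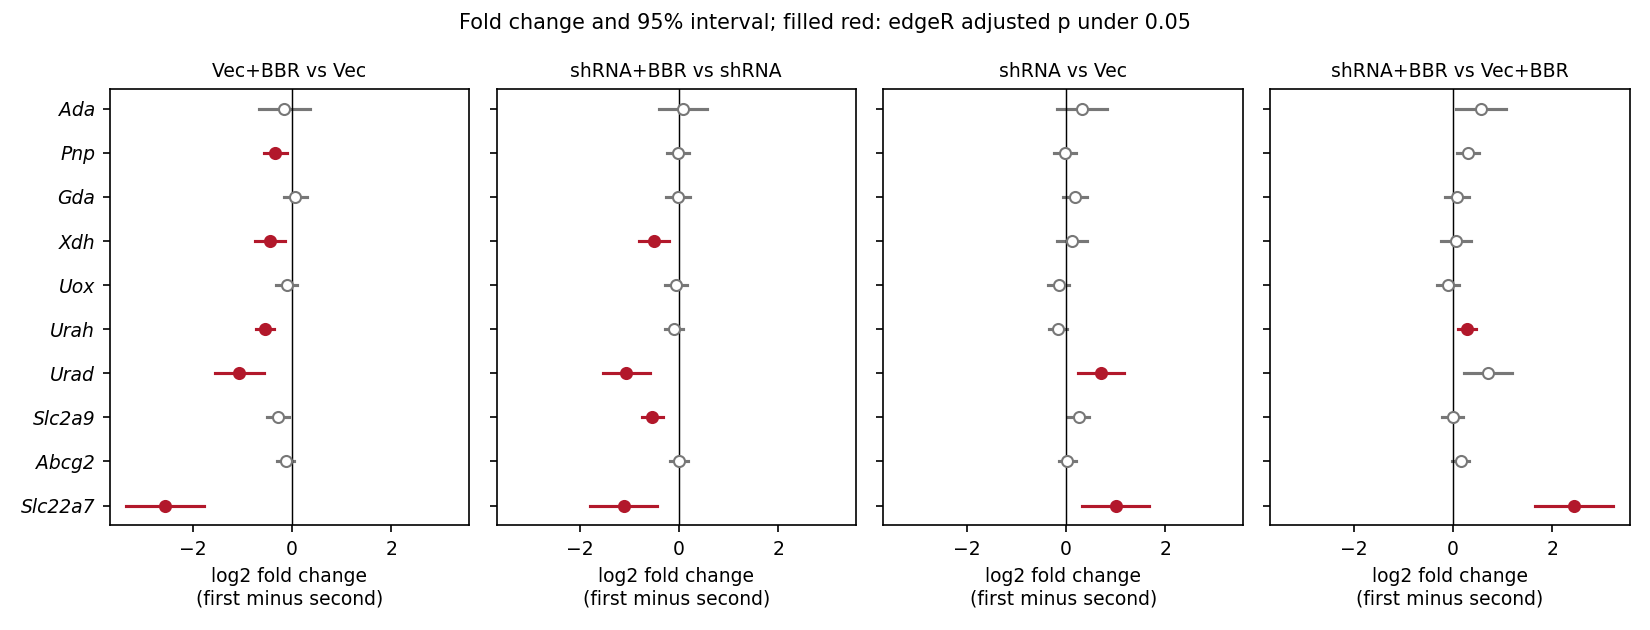
Log2 fold change of the 10 genes in 4 comparisons with 95% intervals, the first group minus the second. Filled red points passed the edgeR test at an adjusted p under 0.05, and they lie below 0 in both BBR comparisons and above 0 in both knockdown comparisons.

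Of the genes on the way to urate, Xdh moved with BBR under both vectors. Xdh (ENSMUSG00000024066, chr17:73883895-73950196, minus strand) had 137, 127, 110.3, 203 and 154 CPM in the Vec livers and 94.5, 125, 110.5, 99.98 and 109.9 CPM in the Vec+BBR livers. The groups overlapped through Vec replicate 3, which lay below Vec+BBR replicates 2 and 3. The difference was 1.36-fold lower with BBR (log2 fold change -0.44, 95% interval -0.74 to -0.14, edgeR adjusted p = 0.0438). In the knockdown livers Xdh had 165, 164, 149, 149 and 172 CPM without BBR and 132, 102, 80.2, 111 and 137 CPM with it. Here the groups did not overlap (exact permutation p = 0.00794, two-sided, n = 5 and 5, the smallest that 5 against 5 allows), and Xdh was 1.42-fold lower (log2 fold change -0.51, 95% interval -0.81 to -0.21, edgeR adjusted p = 0.02497). Between the vectors the log2 fold change was 0.13 without BBR (95% interval -0.17 to 0.43) and 0.06 with BBR (-0.24 to 0.36), and neither passed the test.

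Both Xdh calls were close to the threshold. With the control vector the call held without Vec replicate 3 or Vec+BBR replicate 2 and was lost without any 1 of the other 8 libraries, with edgeR adjusted p from 0.0522 to 0.139. Under knockdown it was lost without shRNA replicate 1 or 5 or shRNA+BBR replicate 2, 3 or 4 (edgeR adjusted p from 0.05004 to 0.0829), and on the FPKM scale the change was -0.14 (limma adjusted p = 0.269).

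Pnp, which splits inosine and guanosine into base and sugar phosphate, was lower with BBR under the control vector. Pnp (ENSMUSG00000115338, chr14:50931082-50965237, plus strand) had 63.2, 56.9, 51.2, 56.99 and 53.5 CPM in Vec and 49.1, 39.1, 47.8, 44.6 and 42.6 CPM in Vec+BBR. Every Vec+BBR liver was below every Vec liver, and the fall was 1.26-fold (log2 fold change -0.34, 95% interval -0.56 to -0.11, edgeR adjusted p = 0.0393). In shRNA livers Pnp had 43.7, 48.2, 59.1, 54.3 and 73.7 CPM and in shRNA+BBR livers 54.7, 58.7, 54.2, 51.4 and 55.6 CPM. These groups overlapped, the second lying inside the wide range of the first, with a log2 fold change of -0.02 (95% interval -0.25 to 0.20). Under BBR every knockdown liver was above every control-vector liver, with a log2 fold change of 0.30 (95% interval 0.07 to 0.52) that did not pass the test (edgeR adjusted p = 0.0879), although it did with only these 2 groups in the fit (edgeR adjusted p = 0.0269). The BBR changes under the 2 vectors differed by 0.31 (-0.01 to 0.63, edgeR adjusted p = 0.277), not past the threshold. The Pnp call was lost without Vec replicate 1, 2 or 4 or Vec+BBR replicate 2, 3, 4 or 5 (edgeR adjusted p from 0.0511 to 0.0972), and on the FPKM scale the change was -0.19 (limma adjusted p = 0.263). The Pnp entry has fractional counts in all 20 libraries and shares exons with Gm49342 on the same strand, so its level is uncertain to the extent that reads were divided between them. With Gm49342 and Pnp2 summed into it, an alternative chosen after seeing the data, Pnp was still called lower in this comparison.

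Ada and Gda, the deaminases of adenosine and guanine, passed the test in none of the 4 comparisons. Ada (ENSMUSG00000017697, chr2:163726584-163750239, minus strand) was scarce, with 9 to 41 counts per liver and group means of 1.05 ± 0.377, 0.952 ± 0.303, 1.34 ± 0.108 and 1.41 ± 0.262 CPM (SD, n = 5) in Vec, Vec+BBR, shRNA and shRNA+BBR. Its largest difference was between the knockdown and control vectors under BBR (log2 fold change 0.56, 95% interval 0.06 to 1.07, edgeR adjusted p = 0.151), and the groups overlapped. Gda (ENSMUSG00000058624, chr19:21391307-21473445, minus strand) had 28.9 ± 6.57, 30.3 ± 2.05, 32.7 ± 2.19 and 32.3 ± 3.05 CPM in the same order, and its 95% intervals lay within -0.26 and 0.41 in all 4 comparisons.

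Of the 3 enzymes after urate, Uox did not pass the test in any comparison while Urah and Urad did. Uox (ENSMUSG00000028186, chr3:146570426-146632305, plus strand) had 2303 ± 206 CPM in Vec, 2134 ± 244 in Vec+BBR, 2079.6 ± 274 in shRNA and 1997 ± 160.3 in shRNA+BBR (SD, n = 5), with single livers from 1729 to 2611 CPM. All group pairs overlapped. Its change with BBR was -0.11 under the control vector (95% interval -0.33 to 0.11) and -0.06 under knockdown (-0.28 to 0.16). The sign of the first turned with the scaling, to 0.02 with library totals only and 0.05 on the FPKM scale. Exons of Uox overlap those of Dnase2b on the opposite strand, which had 24.7 to 35.2 CPM as group means, against the Uox levels above, and the library kit is not stated to keep the strand of reads.

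Urah, the hydrolase of the first product of Uox, was lower with BBR under the control vector. Urah (ENSMUSG00000025481, chr7:140835018-140837966, plus strand) had 179, 213, 169.7, 171 and 159.5 CPM in the Vec livers. In the Vec+BBR livers it had 133, 106, 125, 115 and 130.1 CPM, and all 5 were below the lowest Vec liver. It fell 1.46-fold (log2 fold change -0.55, 95% interval -0.73 to -0.37, edgeR adjusted p = 0.000519), and the call held without any 1 of the 10 libraries. In shRNA livers Urah had 143, 153, 165, 157 and 178 CPM and in shRNA+BBR livers 152, 163, 148, 138 and 141 CPM, which overlap, with a log2 fold change of -0.10 (95% interval -0.28 to 0.08). Under BBR all knockdown livers were above all control-vector livers (1.22-fold, log2 fold change 0.28, 95% interval 0.10 to 0.47, edgeR adjusted p = 0.0492), and this call held only without Vec+BBR replicate 1 or shRNA+BBR replicate 4, the edgeR adjusted p running from 0.0614 to 0.113 without any 1 of the other 8. The difference between the BBR changes under the 2 vectors was 0.45 (0.19 to 0.71) with an edgeR adjusted p of 0.102, not past the threshold, while DESeq2 gave an adjusted p of 0.0297. Exons of Urah overlap those of Gm45785, which had 0 counts, and C330022C24Rik on the opposite strand.

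Urad, the decarboxylase that completes allantoin, moved with BBR under both vectors and with knockdown. Urad (ENSMUSG00000075543, chr5:147314984-147322440, minus strand) had 12.5, 18.8, 9.07, 16.5 and 13.2 CPM in Vec and 4.06, 4.93, 7.23, 8.75 and 8.52 CPM in Vec+BBR. The groups did not overlap, and Urad was 2.09-fold lower with BBR (log2 fold change -1.06, 95% interval -1.55 to -0.57, edgeR adjusted p = 0.00477). Under the knockdown vector it had 23.8, 23.8, 21.4, 22.95 and 22.1 CPM without BBR, the tightest and highest group, and 13.1, 8.08, 6.16, 11.8 and 15.4 CPM with BBR. These groups did not overlap either, and the fall was again 2.09-fold (log2 fold change -1.06, 95% interval -1.53 to -0.59, edgeR adjusted p = 0.00688). Both calls held without any 1 of the libraries, and the difference between the 2 falls was -0.00. Its interval ran from -0.86 to 0.86, so a difference in either direction can lie within it. The width of this interval is itself uncertain, since its standard error was derived from a log2 fold change very close to 0.

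Without BBR, every shRNA liver had more Urad than every Vec liver (1.63-fold, log2 fold change 0.71, 95% interval 0.24 to 1.17, edgeR adjusted p = 0.0419). That call held only without Vec replicate 2 or 4, and without any 1 of the other 8 libraries the edgeR adjusted p ran from 0.0554 to 0.1003. With BBR the difference between the vectors was of like size (0.70, 95% interval 0.22 to 1.19) but the groups overlapped and the edgeR adjusted p was 0.0651. It was 0.0226 without shRNA+BBR replicate 3, the lowest liver of its group and the one with the most Pparg among the knockdown livers.

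Slc22a7, the carrier with the largest coefficient of variation above, passed the test in all 4 comparisons. Slc22a7 (ENSMUSG00000067144, chr17:46432183-46438457, minus strand) had 20.04, 9.96, 5.15, 6.24 and 6.92 CPM in the Vec livers, with replicate 1 well above the rest. In the Vec+BBR livers it had 2.61, 1.12, 1.62, 1.52 and 1.27 CPM, from 25 counts upwards, and every value was below every Vec value. BBR lowered it 5.89-fold (log2 fold change -2.56, 95% interval -3.35 to -1.77, edgeR adjusted p = 0.000261), the largest change of any member. With the knockdown vector the livers had 13.4, 34.6, 15.02, 21.4 and 12.6 CPM without BBR and 9.69, 11.1, 6.63, 6.71 and 10.6 CPM with it. Again the groups did not overlap, and the fall was 2.16-fold (log2 fold change -1.11, 95% interval -1.79 to -0.44, edgeR adjusted p = 0.0276).

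The first of these calls held without any 1 of the 10 libraries, and the second was lost without shRNA replicate 2 or 4 or shRNA+BBR replicate 3 or 4 (edgeR adjusted p from 0.0558 to 0.0907). The falls under the 2 vectors differed by 1.45 on the log2 scale (95% interval 0.41 to 2.48) with an edgeR adjusted p of 0.147, not past the threshold.

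Knockdown livers had more Slc22a7 than control-vector livers in both settings. Without BBR the rise was 2.003-fold (log2 fold change 1.00, 95% interval 0.33 to 1.68, edgeR adjusted p = 0.0454), the groups overlapped through Vec replicate 1, and the call was lost without Vec replicate 2, 3, 4 or 5 or shRNA replicate 2 or 4 (edgeR adjusted p from 0.0719 to 0.155). Under BBR every knockdown liver was above every control-vector liver, 5.46-fold (log2 fold change 2.45, 95% interval 1.66 to 3.24, edgeR adjusted p = 0.000755), and the call held without any 1 of the 10 libraries. By level the groups ran from shRNA (19.4 ± 9.19 CPM, SD, n = 5) through Vec (9.66 ± 6.07) and shRNA+BBR (8.93 ± 2.12), which overlapped, to Vec+BBR (1.63 ± 0.583).

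Slc2a9, the urate carrier of the hepatocyte, fell with BBR under the knockdown vector. Slc2a9 (ENSMUSG00000005107, chr5:38349273-38503143, minus strand) had 84.6, 70.9, 89.7, 85.1 and 86.01 CPM in shRNA livers and 63.1, 57.5, 46.6, 58.9 and 60.1 CPM in shRNA+BBR livers. No value of the second group reached the first, and the fall was 1.46-fold (log2 fold change -0.54, 95% interval -0.76 to -0.33, edgeR adjusted p = 0.00445), a call that held without any 1 of the 10 libraries. Under the control vector Slc2a9 had 69.3, 78.9, 59.6, 74.8 and 66.5 CPM without BBR and 62.4, 45.9, 55.9, 56.3 and 66.00 CPM with it. These groups overlapped through Vec replicate 3, and the change was -0.28 (95% interval -0.50 to -0.07, edgeR adjusted p = 0.0645), which passed without Vec replicate 3 or Vec+BBR replicate 1 or 5 (edgeR adjusted p from 0.0217 to 0.0434) and with DESeq2 (adjusted p = 0.0406). The BBR changes under the 2 vectors differed by -0.26 (-0.56 to 0.05, edgeR adjusted p = 0.344), not past the threshold. Between shRNA and Vec livers the log2 fold change was 0.25 (0.04 to 0.47, edgeR adjusted p = 0.105), and it was called with library totals as the only scaling (0.36, edgeR adjusted p = 0.0196) and on the FPKM scale (0.35, limma adjusted p = 0.0173).

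Abcg2 (ENSMUSG00000029802, chr6:58584523-58695676, plus strand) was the steadiest carrier, with 132 ± 14.3, 120.01 ± 10.3, 134 ± 12.8 and 134 ± 2.36 CPM (SD, n = 5) in Vec, Vec+BBR, shRNA and shRNA+BBR. It was called in no comparison. Its 95% intervals for BBR were -0.31 to 0.04 under the control vector and -0.18 to 0.17 under knockdown on the log2 scale.

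**Figure D3:**
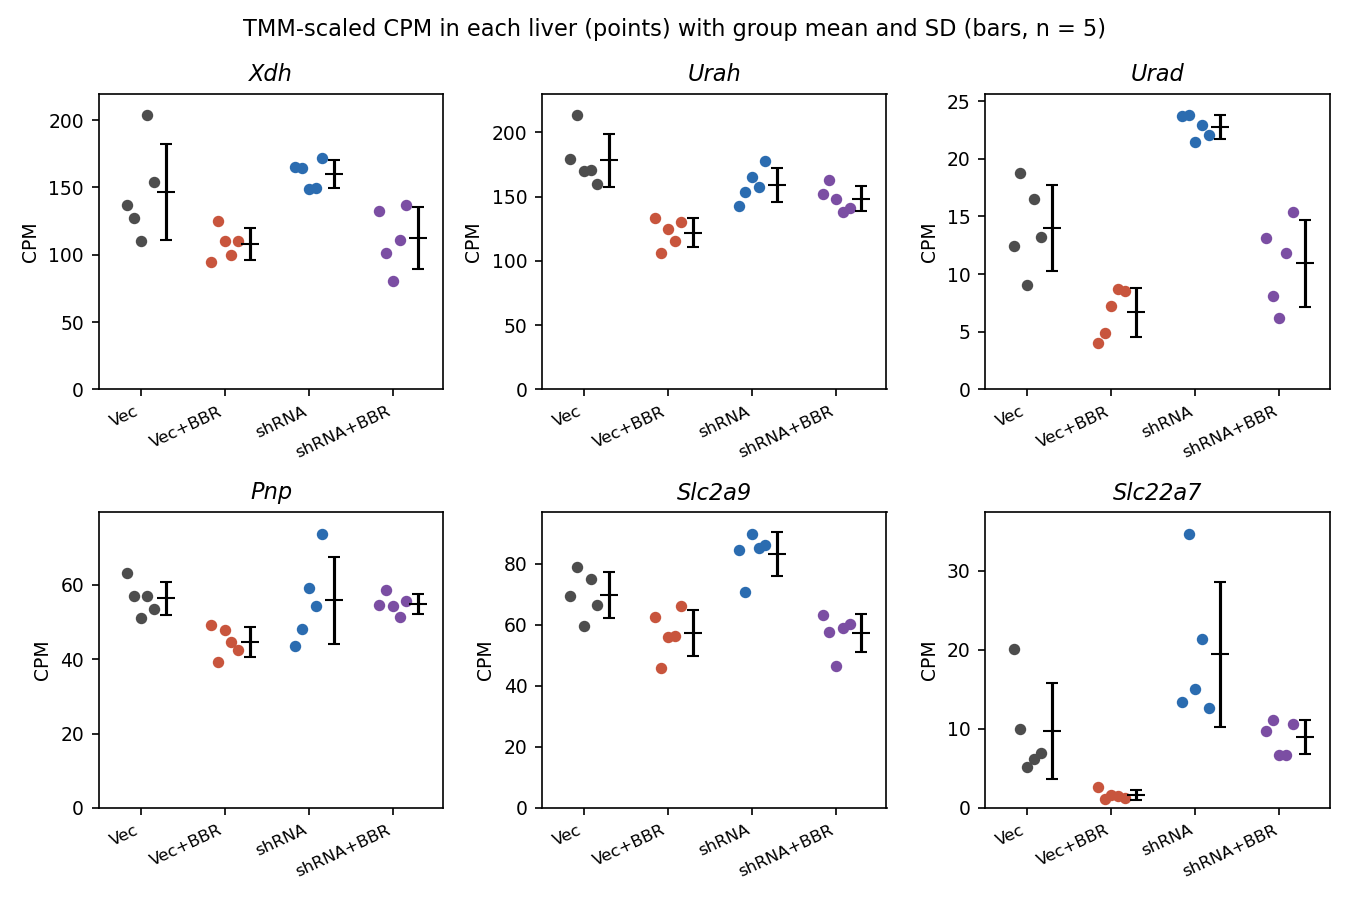
TMM-scaled CPM of the 6 genes called in at least 1 comparison, with 1 point per liver in replicate order from left to right and the group mean with SD beside them (n = 5). Xdh, Urad and Slc22a7 were called lower with BBR under both vectors. By group mean, Vec+BBR is the lowest group for Xdh, Urah, Urad, Pnp and Slc22a7. The shRNA group is the highest for Xdh, Urad, Slc2a9 and Slc22a7.

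The question whether BBR acted differently under the 2 vectors was put to all genes as an interaction. With library totals as the only scaling its median over all genes moved by -0.14. No member was called, against 0.146% of all tested genes. At an unadjusted edgeR p under 0.05 there were 2 of the 10 members, Urah and Slc22a7, against 2281 of the 12342 tested genes, a like share. DESeq2 called 1 member, Urah, and limma on log2(FPKM + 1) called none. A wide interval such as that of Slc22a7 does not show that the responses were alike.

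**Figure D4:**
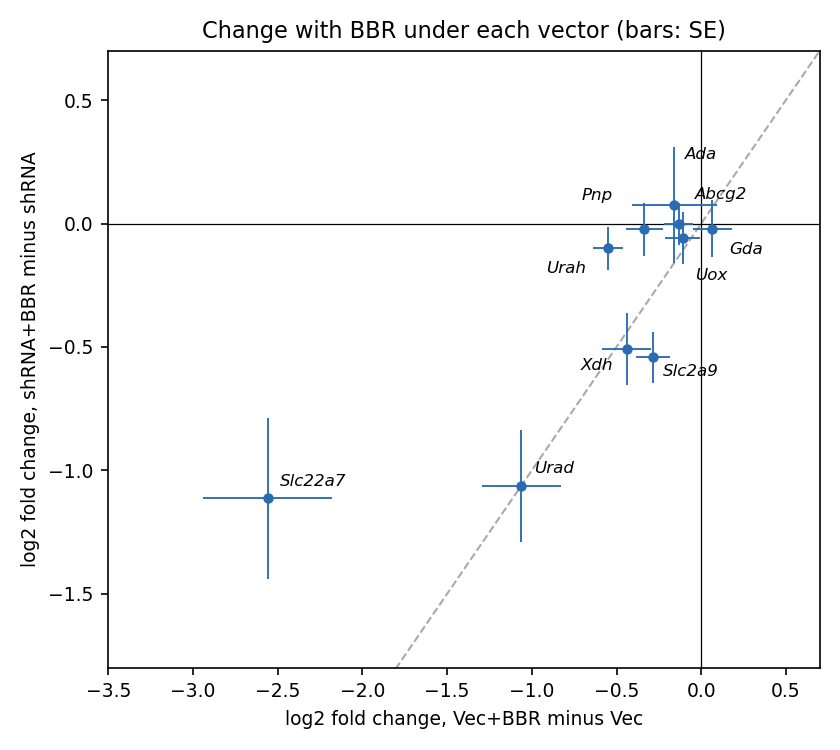
Log2 fold change with BBR under the control vector (x axis) against that under the knockdown vector (y axis) for the 10 genes, with bars of 1 SE and a dashed line where both are equal. Urad, Xdh, Uox, Gda and Abcg2 lie on or near the line. Slc22a7 lies far to the left of it at -2.56 and -1.11, Urah, Pnp and Ada lie less far to the left, and Slc2a9 lies to the right. The edgeR test called no interaction among the 10 genes, and the 2 axes share no mice.

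Markers of liver zones and of other cells moved with some of the same groups, and their part in the changes above was not tested. With BBR and the control vector, 4 of 7 periportal hepatocyte markers were lower and 1 was higher, with sums of 6912 to 13144 CPM in Vec and 6416 to 6916 CPM in Vec+BBR, and 3 of 6 general hepatocyte markers were lower. None of the 6 was at the floor. Endothelial markers had 4 of 7 higher, with sums of 81.5 to 108 and 103 to 138 CPM, and stellate markers 2 of 6 higher (134 to 233 and 238 to 267 CPM). Cholangiocyte markers summed to 24.03 to 45.3 CPM in Vec and 50.3 to 96.6 CPM in Vec+BBR, with 1 of 5 called higher. Of 5 tested lymphocyte markers 3 were lower, with sums of 1.09 to 8.22 and 2.45 to 4.71 CPM. Under knockdown BBR went with 1 of 8 pericentral, 1 of 7 periportal and 1 of 6 general hepatocyte markers lower. Pericentral sums were 7264 to 9467 and 4766 to 9149.5 CPM. Of the 7 endothelial markers 1 was higher and 2 were lower, unlike under the control vector. For stellate markers 3 of 6 were higher, and for cholangiocyte markers 1 of 5. Between shRNA and Vec 3 of 8 pericentral and 1 of 6 stellate markers were lower and 3 of 7 endothelial markers were higher. Between shRNA+BBR and Vec+BBR no pericentral, endothelial or stellate marker was called, and 2 of 7 periportal markers were higher. Of all tested genes, 7.58% were called higher and 7.88% lower with BBR under the control vector, and 8.37% and 7.28% under knockdown. The shares were 5.28% and 7.91% between shRNA and Vec, and 3.31% and 4.82% between shRNA+BBR and Vec+BBR.

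Genes with sex-biased expression in liver were also read in these male mice. Of 8 tested female-biased genes, 3 were lower with BBR under the control vector and 4 under knockdown, 2 were higher in shRNA than in Vec, and with BBR in both groups 3 were higher and 1 lower under knockdown. Their summed level was 674 to 1960.4 CPM in Vec, 739.9 to 973 in Vec+BBR, 1087 to 2102 in shRNA and 535 to 938 in shRNA+BBR. Of 7 tested male-biased genes, 2 were lower with BBR under the control vector, 3 were higher and 2 lower with BBR under knockdown, and 3 were lower in shRNA than in Vec. The shares of all tested genes called in each comparison are those given with the zone markers above. The part of the sex-biased genes in the changes of the urate genes was not tested.

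The wider purine pathway was read from lists of 65 other genes, of which 49 passed the filter. BBR under the control vector raised 4 and lowered 8 of the 49, against 7.58% of all tested genes called higher and 7.88% lower. Nt5e (CD73), which makes adenosine from AMP at the cell surface, rose most, with 5.51, 3.28, 10.1, 4.21 and 11.4 CPM in Vec and 17.9, 22.4, 25.2, 32.7 and 19.9 CPM in Vec+BBR, which did not overlap (log2 fold change 1.76, edgeR adjusted p = 0.000261). Ampd3, an AMP deaminase (0.89), Impdh1, which starts guanine nucleotide synthesis from IMP (0.60), and Abcc4 (MRP4), an exporter with urate among its substrates (0.79), also rose. Ampd3 was scarce, with 5 to 27 counts per liver and means of 0.440 CPM in Vec and 0.826 CPM in Vec+BBR. Lower were the molybdenum cofactor genes Mocs1 (-0.73) and Mocs2 (-0.56), whose product Xdh needs to work. The salvage enzyme Aprt (-0.64), the nucleotidase Nt5m (-0.41), the nucleoside carrier Slc29a1 (-0.70) and, in purine synthesis, Prps1 (-0.29), Paics (-0.52) and Adssl1 (-0.44) were lower too.

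Under knockdown BBR raised 4 of the 49 and lowered 6, against 8.37% of all tested genes called higher and 7.28% lower. Nt5e rose again, from 6.44, 7.87, 10.2, 7.67 and 7.88 CPM to 15.8, 10.4, 12.9, 18.8 and 14.3 CPM (0.85, edgeR adjusted p = 0.0324). The salvage genes Hprt (0.54) and Dguok (0.52) and the synthesis gene Adss (0.29) were also higher. Mocs1 (-0.46), Mocos, the sulfurase that activates the cofactor of Xdh (-0.36), and Suox, another molybdenum enzyme (-0.55), were lower, as were Pfas (-0.71), Paics (-0.45) and Prps1 (-0.24) of purine synthesis. All values in parentheses are log2 fold changes that passed the edgeR test.

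Knockdown without BBR went with 1 of the 49 higher, the nucleotidase Nt5c2 (0.28), and 5 lower, against 5.28% and 7.91% of all tested genes. The lower genes were Aox3, an aldehyde oxidase related to Xdh (-0.88), Mocs2 (-0.54), Hprt (-0.45), Dck (-0.71) and Gart (-0.27). With BBR in both groups Nt5m was higher (0.38) and Aox3 (-0.93), Aox1 (-0.45) and Atic (-0.30) were lower, against 3.31% and 4.82% of all tested genes. The interaction called none of the 49.

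**Figure D5:**
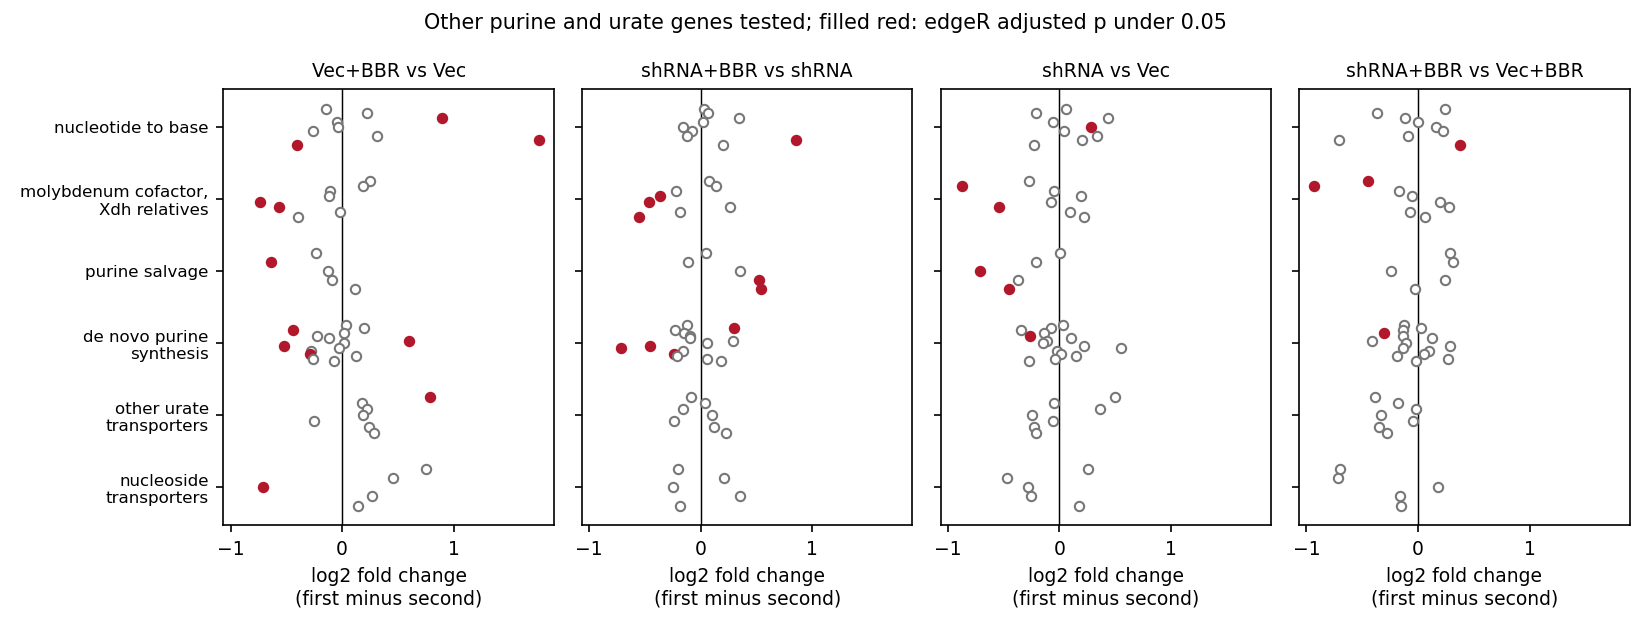
Log2 fold change, the first group minus the second, of the 49 tested genes in 6 lists of the purine pathway, with 1 point per gene. Filled red points passed the edgeR test at an adjusted p under 0.05, and in both BBR comparisons the point farthest to the right is Nt5e.

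Slc22a12 (URAT1), the kidney carrier that BBR blocks, had 0 to 10 counts per liver, with 3, 7, 6 and 22 counts over the 5 livers of Vec, Vec+BBR, shRNA and shRNA+BBR, and was removed by the filter. The list of other urate transporters held 15 genes, Slc22a12 among them, and 7 were tested, including Slc17a1, Slc17a3 and the scaffold Pdzk1. Abcc4 with BBR under the control vector was the single call. Allc, the other gene listed downstream of urate, had 0 counts in every liver.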

How the data were processed

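Liver RNA of 20 mice was sequenced after poly(A) selection, 1 library per mouse. Per the file headers, the deposited values are expected counts, which the authors estimated per gene without normalization, some with decimals where reads were divided between genes, and FPKM, which the authors scaled for transcript length and library size. The submitters' processing notes name mm10 as the build, and the aligner, counter and annotation are not given in the sources used here. Groups were taken from the labels, and no column of another sample was used (0 columns). Replicates are separate mice, so p-values measure the spread between mice. The lowest chi-square per gene among the 40 pairs of libraries within groups was 15.1, so none was the same library counted again. This check cannot show whether libraries came from separate mice.

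Expected counts were rounded to whole numbers, filtered (filterByExpr, minimum count 10, minimum total 15, 12342 genes kept), scaled by TMM (factors 0.873 to 1.14) and fitted over all 20 libraries by the quasi-likelihood test of edgeR 4.0.16 in R 4.3.3 (biological coefficient of variation 0.177), with Benjamini-Hochberg adjustment over all tested genes and a threshold of 0.05. The interaction is the BBR change under knockdown minus that under the control vector. The steps were tested on simulated data. Folds are 2 to the power of the fitted log2 fold change, and intervals are 95%. The standard error behind each interval is the absolute log2 fold change divided by the square root of the F statistic of the edgeR test. It is imprecise where the change is very close to 0. The exact permutation test of a single gene ran over the 252 assignments of 5 and 5 mice. FPKM were used for levels between genes and, as log2(FPKM + 1), for limma 3.58.1. Other alternatives were RLE size factors, library totals only, DESeq2 1.42.0, no filter on low counts, only the 2 groups compared, a replicate block, leaving out each library, and the sum of Pnp with Gm49342 and Pnp2. The floor was 3 counts.

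All 10 genes are named, genes of the pathway lists where the adjusted p was under 0.05, and Pparg as a check, as well as the 3 genes most like each member by Pearson r of log2(CPM + 0.5) over the 20 libraries, among 8333 genes with a mean of at least 5 CPM. Some of these similar genes are not reported here. Nt5e, Slc22a12, Allc and carriers named beside their counts come from the pathway lists. The members and lists were chosen with earlier results of these data known. Gene positions follow GENCODE M21 (GRCm38), which held 22255 of the listed identifiers, and start regions are RefSeq on GRCm38.p6.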

Additional observations from a re-analysis of the deposited data

Results flagged for a closer look

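Of the 40 sets of 5 livers (10 genes in 4 groups), 2 had a liver far from the other 4, its gap to the nearest liver being over 0.71 of the range of the group. Chance gives about 1 in 20 such sets. In the shRNA group Slc2a9 was lowest in replicate 2 (70.9 CPM), with a gap of 0.726 of the range, and its fall with BBR was called also without that liver. In the shRNA+BBR group Abcg2 was highest in 1 liver (138 CPM), with a gap of 0.861 of a narrow range, and Abcg2 was called in no comparison.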

How the results depend on the processing

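The 10 members in 4 comparisons and the interaction gave 50 log2 fold changes with 945 alternative values, of which 811 kept their direction and side of the threshold, 59 lost a call, 10 gained one and 65 changed sign, with none of the 65 among the 13 called changes. Called in every alternative were 6, Urah and Slc22a7 (Vec+BBR vs Vec), Urad under both vectors, Slc2a9 (shRNA+BBR vs shRNA) and Slc22a7 (shRNA+BBR vs Vec+BBR). For Vec+BBR vs Vec the count of called members was 3 with library totals only, with no filter on low counts and with the replicate block, 6 with DESeq2, and 3 to 6 leaving out 1 library, where the 5 called were Xdh, Urah, Urad, Pnp and Slc22a7. For shRNA+BBR vs shRNA it was 2 to 4 leaving out 1 library. For shRNA vs Vec it was 1 with only the 2 groups compared, 3 with library totals only and 0 to 1 leaving out 1 library. For shRNA+BBR vs Vec+BBR it was 1 with no filter and with the replicate block, 3 with only the 2 groups compared, and 1 to 2 leaving out 1 library. The interaction had 1 with DESeq2, Urah. Same-numbered mice correlated over 0.1 in 1 of 5 numbers (Vec+BBR vs Vec), 3 of 5 (shRNA+BBR vs shRNA) and 0 in the other 2 pairs of groups, so numbers were not taken to pair mice. Among all genes the calls went from 1908 to 1178 with only the 2 groups compared and to 1237 without Vec replicate 2 (Vec+BBR vs Vec), from 1932 to 661 without shRNA+BBR replicate 3 (shRNA+BBR vs shRNA), from 1628 to 1015 without shRNA replicate 4 (shRNA vs Vec), from 1004 to 538 without shRNA+BBR replicate 2 (shRNA+BBR vs Vec+BBR), and for the interaction from 18 to 30 with library totals only, 330 with DESeq2, 28 with limma, and to 5 without Vec+BBR replicate 4 and 122 without Vec replicate 4. Values given next are log2 fold changes that changed sign, none of them called before or after. With limma on log2(FPKM + 1) they were -0.043 for Xdh (shRNA vs Vec), 0.24 for Xdh (the interaction), 0.047 for Uox (Vec+BBR vs Vec), 0.066 for Uox (shRNA vs Vec), -0.27 for Uox (the interaction), 0.090 for Pnp (shRNA vs Vec), 0.026 for Abcg2 (Vec+BBR vs Vec) and -0.13 for Abcg2 (the interaction). With library totals only they were 0.021 for Uox (Vec+BBR vs Vec), -0.090 for Uox (the interaction), 0.090 for Pnp (shRNA vs Vec) and -0.012 for Abcg2 (the interaction). With RLE size factors they were 0.0018 for Urad (the interaction) and 0.0045 for Slc2a9 (shRNA+BBR vs Vec+BBR). With DESeq2 they were 0.0039 for Urad (the interaction) and 0.0045 for Slc2a9 (shRNA+BBR vs Vec+BBR). With Pnp summed with Gm49342 and Pnp2 they were 0.036 for Pnp (shRNA vs Vec). With only the 2 groups compared they were 0.014 for Slc2a9 (shRNA+BBR vs Vec+BBR) and 0.0065 for Abcg2 (shRNA+BBR vs shRNA). With the replicate block they were 0.00040 for Abcg2 (shRNA+BBR vs shRNA). Leaving out 1 library in turn gave ranges of -0.022 to 0.17 for Xdh (shRNA+BBR vs Vec+BBR), -0.22 to 0.043 for Xdh (the interaction), -0.11 to 0.017 for Uox (shRNA+BBR vs shRNA), -0.0044 to 0.13 for Uox (the interaction), -0.16 to 0.16 for Urad (the interaction), -0.10 to 0.096 for Pnp (shRNA+BBR vs shRNA), -0.13 to 0.064 for Pnp (shRNA vs Vec), -0.31 to 0.029 for Ada (Vec+BBR vs Vec), -0.0015 to 0.17 for Ada (shRNA+BBR vs shRNA), -0.015 to 0.18 for Gda (Vec+BBR vs Vec), -0.072 to 0.019 for Gda (shRNA+BBR vs shRNA), -0.20 to 0.00080 for Gda (the interaction), -0.059 to 0.076 for Slc2a9 (shRNA+BBR vs Vec+BBR), -0.039 to 0.038 for Abcg2 (shRNA+BBR vs shRNA) and -0.025 to 0.075 for Abcg2 (shRNA vs Vec). The alternative with Gm49342 and Pnp2 was chosen after seeing the data, and for these sign changes the cause was not tested. Ada rests on 9 to 41 counts per liver.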

Other observations

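Over the 20 livers, the genes whose log2 CPM ran most like each member were read as a description. The libraries fall into 4 groups that differ, so any genes that differ between the groups share this pattern, and Pearson r is given with no test (n = 20 libraries). For the breakdown enzymes the closest were Pxmp2 (0.956), Fah (0.954) and Pih1d1 (0.948) for Urah, Arhgef37 (0.947), Taok2 (0.932) and Aph1a (0.925) for Urad and Dnajb6 (0.770), Tm9sf2 (0.758) and Nono (0.729) for Uox. Of these, Pxmp2 encodes a peroxisomal membrane protein and Fah the last enzyme of tyrosine breakdown. On the way to urate they were Lrp1 (0.962), Bcor (0.936) and Ccnk (0.932) for Xdh, Sult1a1 (0.850) for Pnp, Ahcyl2 (0.807), Strn3 (0.799) and Rbm27 (0.797) for Gda and Lad1 (0.752), Sdr9c7 (0.747) and Eif4e3 (0.714) for Ada. Lrp1 is an endocytic receptor and Sult1a1 a sulfotransferase. Among the carriers they were Car14 (0.944), Ethe1 (0.932) and Arl6ip4 (0.932) for Slc22a7 and Mettl15 (0.778), Ptgr1 (0.772) and Pyurf (0.757) for Abcg2. Car14 is a carbonic anhydrase, and Ethe1 is a mitochondrial enzyme of sulfide breakdown. The closest gene of Uox, Ada and Abcg2, the members called in no comparison beside Gda, had r of 0.770, 0.752 and 0.778, and that of Gda had 0.807.

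Markers of blood and immune cells were counted as well, and the shares of all tested genes called are those given with the zone markers. Of 7 macrophage markers 1 was higher and 1 lower with BBR under the control vector, 1 was higher with BBR under knockdown and 1 lower in shRNA than in Vec. Of 5 tested lymphocyte markers 1 was higher with BBR under knockdown, 1 was lower in shRNA than in Vec and 1 was higher under knockdown with BBR in both groups. Of 3 tested neutrophil markers 1 was higher with BBR under knockdown, and none of 5 erythroid markers was called in any comparison. Of 5 intestine markers 1 was tested, and it was higher with BBR under knockdown.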
